A study of Mus musculus with 9 samples.

Results

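The 41 genes described here serve DNA replication and cell division, and were taken by gene name from a table of 54532 genes measured in mouse duodenum, the first stretch of the small intestine. They fall into 17 S phase genes and 24 mitotic genes. Most of the S phase genes load and run the replication fork or make its nucleotides. The mitotic genes drive entry into and passage through mitosis. All 41 reached an average of 0.5 FPKM or more and so were among the 14683 genes tested. FPKM is a level scaled for the length of the gene and the size of the library.

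RNA was sequenced from whole duodenal tissue in 3 groups of 3 libraries each. The CeD+GR group was a delayed-type hypersensitivity (DTH) mouse model of celiac disease that was given composite nanoparticles of gliadin and rapamycin beforehand and then enhanced gluten stimulation. Gliadin is a gluten protein fraction, and rapamycin inhibits the growth-promoting kinase mTOR. The CeD group was the same model with enhanced gluten stimulation and no nanoparticles named in its label. The control group was WT with non-enhanced gluten stimulation. The labels give no dose, timing, strain, sex or age. They also do not say if a group's 3 libraries are 3 animals, so a p-value here reflects the spread among the libraries and that spread may be technical. A library is called by its group and its number in the labels, such as CeD 1.

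In the small intestine, cells divide in the crypts and differentiate as they move onto the villi, so RNA of division genes marks the crypt compartment. Before S phase the MCM hexamer is loaded onto origins with the help of Cdc6, and it becomes an active helicase when Cdc45 and the GINS complex join it. E2F factors induce these genes at the passage from G1 to S phase. Mitotic genes are induced later, in G2 and M phase, mostly through a promoter element called CHR together with CCAAT boxes bound by NF-Y, and they are held down in resting cells by the DREAM complex. In bulk tissue, fewer dividing cells and less of this RNA per cell cannot be told apart.

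Start sites of the abundant members are shown because S phase and mitotic genes differ there in the elements just named. Each window runs from 250 bases before to 30 bases after a RefSeq start site in build GRCm38.p6, and 33 of the 41 members were matched, with 36 windows. Searched on both strands were the CHR letters TTTGAA and TTCGAA, the letters CCAAT, and the E2F letters TTTCCCGC, TTTGGCGC, TTTCGCGC and TTTGCCGC. Capitals mark every match, and an E2F match can overlap a CCAAT match, as it does near the end of the Mcm7 window.
Ccnb2 (chr9:70421525-70421804, minus strand): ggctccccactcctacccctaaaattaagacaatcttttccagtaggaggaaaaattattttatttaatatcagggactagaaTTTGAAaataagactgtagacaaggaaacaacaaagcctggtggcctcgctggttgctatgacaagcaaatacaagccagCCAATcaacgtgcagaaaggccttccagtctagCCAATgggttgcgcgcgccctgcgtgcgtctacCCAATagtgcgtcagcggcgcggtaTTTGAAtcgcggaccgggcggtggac
Mki67 (chr7:135716350-135716629, minus strand): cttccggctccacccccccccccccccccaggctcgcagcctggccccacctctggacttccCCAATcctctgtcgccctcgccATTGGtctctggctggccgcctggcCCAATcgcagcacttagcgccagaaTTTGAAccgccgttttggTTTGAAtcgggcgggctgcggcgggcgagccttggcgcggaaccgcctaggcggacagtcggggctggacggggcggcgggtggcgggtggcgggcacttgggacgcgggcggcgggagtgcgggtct
Ube2c (chr2:164769679-164769958, plus strand): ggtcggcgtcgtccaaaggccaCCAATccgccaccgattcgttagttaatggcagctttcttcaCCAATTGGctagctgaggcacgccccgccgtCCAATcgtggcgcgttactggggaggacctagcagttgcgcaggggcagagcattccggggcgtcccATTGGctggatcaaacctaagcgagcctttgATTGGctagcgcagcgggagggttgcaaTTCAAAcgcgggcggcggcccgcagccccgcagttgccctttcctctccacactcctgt
Mcm6 (chr1:128359676-128359955, minus strand): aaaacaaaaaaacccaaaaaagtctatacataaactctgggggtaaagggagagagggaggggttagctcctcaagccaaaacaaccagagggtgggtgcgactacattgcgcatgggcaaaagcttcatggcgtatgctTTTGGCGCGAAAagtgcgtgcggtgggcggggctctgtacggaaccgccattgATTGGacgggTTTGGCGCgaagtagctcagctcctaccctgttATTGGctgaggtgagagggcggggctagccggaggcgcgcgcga
Mcm7 (chr5:138171854-138172133, minus strand): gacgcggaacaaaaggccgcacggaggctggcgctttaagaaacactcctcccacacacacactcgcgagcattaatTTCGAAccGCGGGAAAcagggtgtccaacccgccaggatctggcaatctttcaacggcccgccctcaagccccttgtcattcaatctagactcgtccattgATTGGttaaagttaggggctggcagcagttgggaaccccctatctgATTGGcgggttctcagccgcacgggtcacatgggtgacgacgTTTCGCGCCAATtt
Mcm3 (chr1:20820283-20820562, minus strand): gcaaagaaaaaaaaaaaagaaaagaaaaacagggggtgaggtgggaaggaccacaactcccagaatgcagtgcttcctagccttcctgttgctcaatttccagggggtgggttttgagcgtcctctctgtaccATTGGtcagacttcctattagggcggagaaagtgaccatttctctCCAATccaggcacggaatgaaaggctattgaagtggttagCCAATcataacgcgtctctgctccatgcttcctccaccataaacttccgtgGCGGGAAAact

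The first 3 windows belong to mitotic genes, the cyclin Ccnb2, the proliferation antigen Mki67 and the ubiquitin-conjugating enzyme Ube2c, which serves the anaphase-promoting complex. They were chosen as the most abundant mitotic members whose window holds CHR letters, and each also holds CCAAT letters and no E2F letters. The last 3 belong to MCM helicase subunits, chosen as the most abundant S phase members whose window holds E2F letters, and only Mcm7 among these 3 holds CHR letters.

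Over all members matched, CHR letters were found in 14 of 20 mitotic windows (70.0%) and in 3 of 16 S phase windows (18.8%), against 18.4% of all 32851 windows of the same length. E2F letters were found in 1 of 20 mitotic windows (5.0%) and in 6 of 16 S phase windows (37.5%), against 2.12% of all windows. CCAAT letters were common to both kinds, with 18 of 20 mitotic windows (90.0%) and 13 of 16 S phase windows (81.2%), against 36.1% of all windows. Of the 20 CHR matches in mitotic windows, 12 lay between 40 bases before and 30 bases after the start. Among these the same site of Prc1 is counted 2 times, in its 2 overlapping windows, and positions were not counted over all windows. A window counts once for each start site, so a gene with 2 windows counts 2 times, and 29 of the 36 windows start within 100 bases of the gene start in the deposited table. A match describes letters only, and no binding was measured here.

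**Figure D1:**
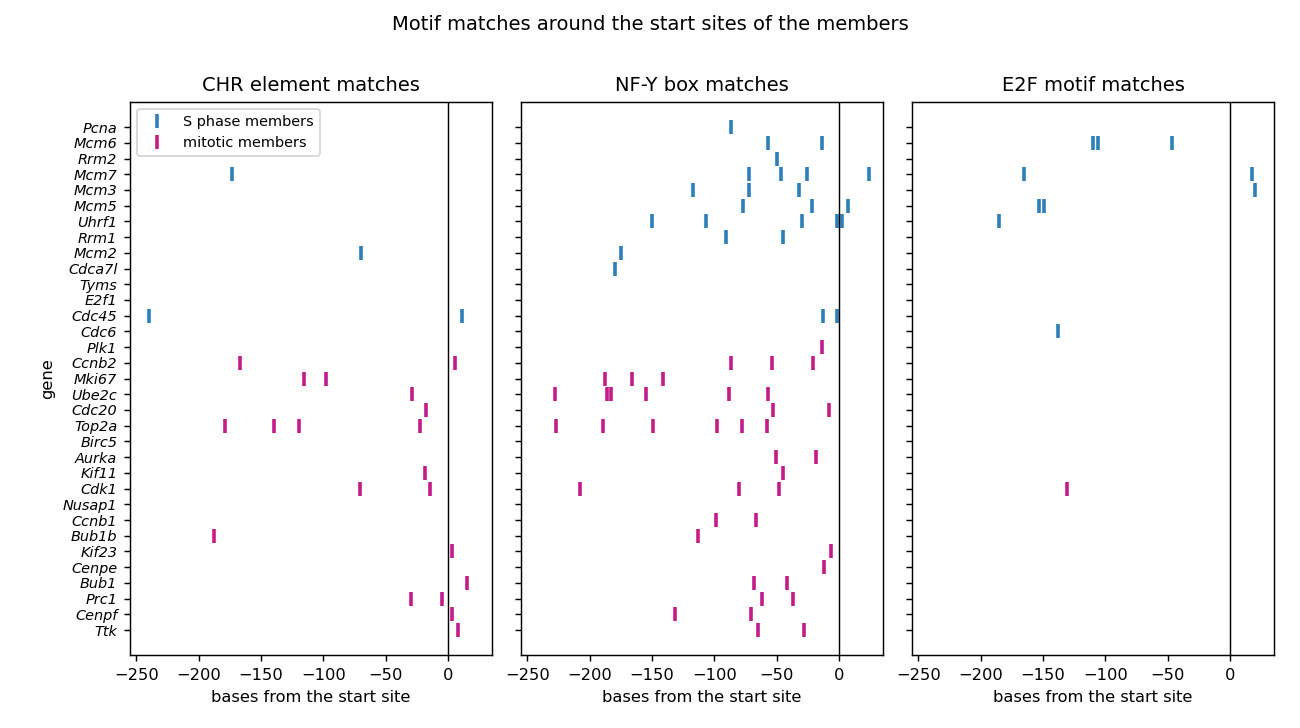
Positions of motif matches, in bases from the RefSeq start site on the x axis, for each matched member on the y axis, with S phase members in blue and mitotic members in magenta and the start site as a vertical line. Of the CHR matches of mitotic members, 12 of 20 lie between 40 bases before and 30 bases after the start. NF-Y boxes (CCAAT letters) lie mostly upstream in both kinds. E2F matches are found in 6 of 16 S phase windows and 1 of 20 mitotic windows.

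The reads assigned to genes numbered 15373260 to 16852104 in a library, of which the members took from 3433 reads in CeD+GR 2 to 25286 reads in CeD 1. All 8 markers of duodenal epithelium were above 0 in every library, with a summed level of 2760 to 4880 FPKM in CeD+GR, 3030 to 5400 FPKM in CeD and 3250 to 3900 FPKM in control libraries. Some libraries stood apart in other markers. CeD+GR 3 held 140000 FPKM of gastric mucous and Brunner gland markers, against 0 to 50.5 FPKM in the other 8 libraries. CeD 1 held 3790 FPKM of exocrine pancreas markers, against 3.87 to 54.9 FPKM in the other 8. CeD+GR 2 had the highest sum of adipocyte markers, 476 FPKM. Pdx1, a duodenal and pancreatic transcription factor among the 8 markers of duodenal epithelium, was lowest in CeD+GR 2, at 0.118 FPKM. CeD+GR 1 was next lowest, at 1.59 FPKM, against 6.64 to 27.2 FPKM in CeD and control libraries, and CeD+GR 3 was highest. The summed level of the 8 markers hardly reflects Pdx1, and the part of the duodenum sampled in each library was not tested. Each group result below is therefore also given without some libraries.

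In the comparisons of the groups, none of the 41 genes passed the test, and the level of the whole set differed more between libraries of the same group than between group means. CeD 1, CeD+GR 1 and control 1 had the highest mean levels, CeD+GR 3 came next, and CeD+GR 2 had the lowest. The mean level of the mitotic members, as log2(FPKM + 0.5), was 2.21, 0.23 and 1.71 in CeD+GR 1, 2 and 3, then 2.73, 1.10 and 0.66 in CeD 1, 2 and 3, and 2.21, 0.44 and 0.71 in control 1, 2 and 3. The mean level of the S phase members on the same scale was 2.06, 0.74 and 1.73 in CeD+GR, 2.63, 1.34 and 1.09 in CeD, and 2.42, 1.13 and 1.04 in control libraries. The groups overlapped for both kinds, and over all genes tested the same mean stayed between 2.39 and 2.48 in the 9 libraries.

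**Figure D2:**
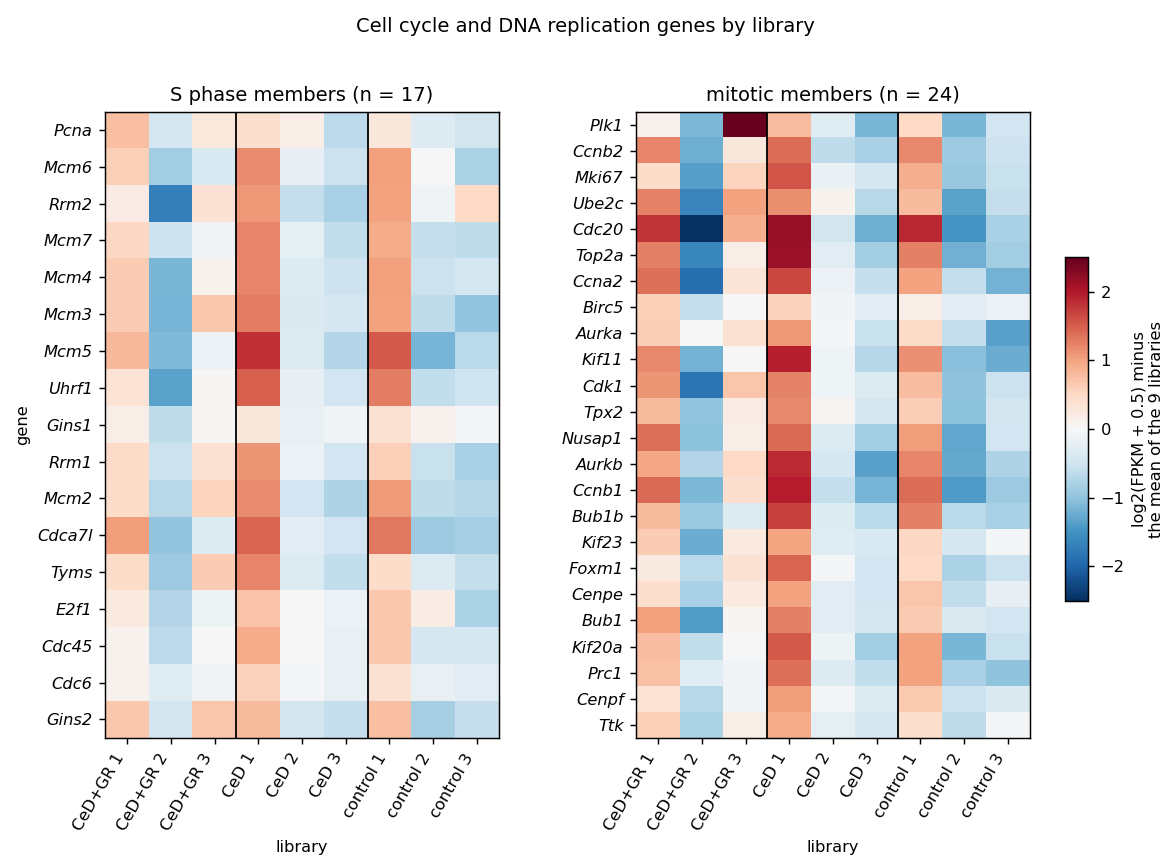
Level of each member (rows, S phase left and mitotic right) in each library (columns), as log2(FPKM + 0.5) minus the mean of that gene over the 9 libraries, red above and blue below that mean. The columns CeD+GR 1, CeD 1 and control 1 are mostly red in both panels and CeD+GR 2 is mostly blue. CeD 1 is highest in 36 of 41 genes, against 11.8% of all genes tested. CeD+GR 2 is lowest in 24 of 41, against 25.0% of all genes tested.

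Among the S phase members, the 6 subunits of the MCM helicase were each highest in CeD 1 and next highest in control 1, while the order of the other libraries differed between them. Mcm5 (chr8:75109569-75128439, plus strand, mm10) had 4.74, 0.890 and 2.22 FPKM in CeD+GR 1, 2 and 3, then 10.2, 1.86 and 1.31 FPKM in CeD 1, 2 and 3, and 8.23, 0.838 and 1.37 FPKM in control 1, 2 and 3. Mcm6 (chr1:128331590-128359664, minus strand) had 11.3, 3.77 and 5.51 FPKM in CeD+GR, 17.1, 6.31 and 4.86 FPKM in CeD, and 15.4, 7.23 and 3.99 FPKM in control libraries. Mcm2 had 2.77, 0.977 and 3.03 FPKM in CeD+GR, 4.93, 1.22 and 0.907 FPKM in CeD, and 4.49, 1.04 and 0.963 FPKM in control libraries. The lowest library was control 2 for Mcm5, CeD+GR 2 for Mcm6 and CeD 3 for Mcm2, and the groups overlapped. Mcm3, Mcm4 and Mcm7 were likewise highest in CeD 1, at 8.89, 8.92 and 9.52 FPKM, and next highest in control 1.

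Pcna, the sliding clamp that holds the polymerases on DNA, was the most abundant member, at a mean of 26.7 FPKM over the 9 libraries. It had 43.3, 19.0 and 30.6 FPKM in CeD+GR, 33.8, 28.5 and 15.9 FPKM in CeD, and 31, 20.3 and 18.3 FPKM in control libraries. Its highest level was in CeD+GR 1 and its lowest in CeD 3, so it was 1 of the 2 S phase members that were not highest in CeD 1. The other was Gins1, a subunit of the GINS complex, with 3.15, 1.59 and 2.82 FPKM in CeD+GR, 3.48, 2.38 and 2.60 FPKM in CeD, and 3.73, 3.02 and 2.66 FPKM in control libraries. The highest library was 2.73 times the lowest for Pcna and 2.34 times for Gins1, against 4.13 times (Mcm7) to 12.2 times (Mcm5) among the MCM genes. The genome carries pseudogene copies of Pcna and Tyms that are named in the table, so their reads may be shared with those copies.

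Origin licensing and fork genes were expressed at lower levels. Cdc6 had 0.778, 0.461 and 0.608 FPKM in CeD+GR, 1.27, 0.664 and 0.545 FPKM in CeD, and 1.05, 0.536 and 0.476 FPKM in control libraries. Cdc45 had 1.09, 0.453 and 1.01 FPKM in CeD+GR, 2.38, 1.01 and 0.831 FPKM in CeD, and 1.91, 0.604 and 0.626 FPKM in control libraries. Both were highest in CeD 1 and lowest in CeD+GR 2. Gins2 was read from few fragments, 4 to 15 reads in the 5 libraries where it was lowest, and overlaps Gse1 on the opposite strand, which had 3.21, 0.374 and 1.62 FPKM in CeD+GR, 4.72, 2.38 and 1.07 FPKM in CeD, and 5.65, 1.27 and 0.865 FPKM in control libraries.

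Rrm2, the regulated subunit of ribonucleotide reductase, which makes deoxynucleotides, had 5.38, 1.05 and 6.07 FPKM in CeD+GR, 10.3, 2.88 and 2.41 FPKM in CeD, and 9.77, 4.31 and 6.67 FPKM in control libraries. It differed from the other S phase members in that control 3 was above CeD+GR 1 and CeD+GR 3. Its partner Rrm1 had 3.05, 1.27 and 2.79 FPKM in CeD+GR, 4.96, 1.79 and 1.33 FPKM in CeD, and 3.36, 1.23 and 0.953 FPKM in control libraries. Tyms, the thymidylate synthase, lay between 0.459 FPKM in CeD+GR 2 and 3.65 FPKM in CeD 1.

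Uhrf1, which directs maintenance methylation of newly copied DNA, had 3.67, 0.790 and 2.86 FPKM in CeD+GR, 8.73, 2.36 and 1.84 FPKM in CeD, and 7.42, 1.64 and 1.82 FPKM in control libraries. E2f1, an E2F transcription factor, had 1.31, 0.423 and 0.892 FPKM in CeD+GR, 2.01, 1.01 and 0.885 FPKM in CeD, and 1.92, 1.23 and 0.376 FPKM in control libraries. In both genes CeD 1 and control 1 were the 2 highest libraries. Cdca7l, a relative of the E2F and Myc target Cdca7, ranged from 0.390 FPKM in CeD+GR 2 to 4.32 FPKM in CeD 1.

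Among the mitotic members the spread between libraries was wider. Mki67 (chr7:135689784-135716361, minus strand, mm10) had 8.16, 1.92 and 8.86 FPKM in CeD+GR 1, 2 and 3, then 18.4, 5.15 and 4.19 FPKM in CeD 1, 2 and 3, and 11.3, 2.77 and 3.79 FPKM in control 1, 2 and 3. Top2a (chr11:98992943-99024189, minus strand), the topoisomerase that untangles sister chromatids, had 9.23, 0.817 and 4.04 FPKM in CeD+GR, 17.5, 2.83 and 1.75 FPKM in CeD, and 9.17, 1.27 and 1.72 FPKM in control libraries. Both were highest in CeD 1 and lowest in CeD+GR 2, and all 3 groups overlapped. The highest library was 9.58 times the lowest for Mki67 and 21.4 times for Top2a.

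The cyclins and their kinase were high in the same libraries. Ccnb2 (chr9:70407692-70421547, minus strand) had 15.7, 2.49 and 8.03 FPKM in CeD+GR, 17.8, 4.03 and 3.49 FPKM in CeD, and 15.6, 3.21 and 4.41 FPKM in control libraries. Ccna2, a cyclin of S and G2 phase, had 9.09, 0.498 and 4.12 FPKM in CeD+GR, 11.2, 2.82 and 1.96 FPKM in CeD, and 6.86, 1.94 and 1.13 FPKM in control libraries. Cdk1, the kinase that both cyclins activate, had 4.88, 0.206 and 3.51 FPKM in CeD+GR, 5.40, 1.81 and 1.46 FPKM in CeD, and 3.76, 0.748 and 1.21 FPKM in control libraries. In each of these 3 genes CeD 1 was highest, and CeD+GR 1 was above control 1. Ccnb1, the partner of Cdk1 at mitotic entry, ranged from 0.227 FPKM in control 2 to 7.04 FPKM in CeD 1. Pseudogene copies of Ccnb1 and Ccnb2 are named in the table.

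Genes of mitotic exit spanned a wide range. Cdc20, the activator of the anaphase-promoting complex, had 11.4, 0 and 5.99 FPKM in CeD+GR, 15.0, 2.01 and 0.974 FPKM in CeD, and 12.3, 0.731 and 1.46 FPKM in control libraries. The 0 in CeD+GR 2 stands for 0 reads, which allows up to 3 reads or 0.102 FPKM by counting error alone, while the other 8 libraries held 20 to 498 reads. Ube2c had 13.7, 1.42 and 11.5 FPKM in CeD+GR, 12.9, 5.90 and 3.20 FPKM in CeD, and 9.95, 1.89 and 3.47 FPKM in control libraries, with CeD+GR 1 highest.

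Kinases of the spindle and its checkpoint came next. Aurka, which matures the spindle poles, had 4.54, 2.78 and 3.79 FPKM in CeD+GR, 6.47, 2.71 and 1.73 FPKM in CeD, and 4.08, 1.70 and 0.796 FPKM in control libraries. Aurkb, the kinase of the chromosomal passenger complex, had 3.66, 0.776 and 2.49 FPKM in CeD+GR, 7.25, 1.06 and 0.330 FPKM in CeD, and 4.42, 0.371 and 0.744 FPKM in control libraries. In both kinases CeD 1 was highest, and CeD+GR 2 was above CeD 3, control 2 and control 3. Bub1, a checkpoint kinase at the kinetochore, was at 0 reads in CeD+GR 2, which allows up to 0.0437 FPKM, and at 0.436 to 2.63 FPKM elsewhere.

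Plk1 (chr7:122159439-122169873, plus strand, mm10), a kinase of mitotic entry and cytokinesis, had 7.72, 3.00 and 52.9 FPKM in CeD+GR, 12.4, 5.62 and 2.92 FPKM in CeD, and 10.2, 2.95 and 4.91 FPKM in control libraries. CeD+GR 3 stood far above the other 8 libraries, which no other member did there. Inside Plk1, on the opposite strand, lies the predicted gene Gm44985 (chr7:122167029-122168044), which had 3.30, 15.9 and 120 FPKM in CeD+GR, 4.20, 8.33 and 9.97 FPKM in CeD, and 4.6, 9.75 and 15.5 FPKM in control libraries. Both were highest in CeD+GR 3, and since the strand setting of the counting is not given, reads of these genes cannot be told apart with certainty. In all, 9 members overlap a tested gene on the opposite strand, and none overlaps one on the same strand.

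Of the motor and spindle proteins, Kif11, the motor that separates the spindle poles, had 5.53, 0.659 and 2.16 FPKM in CeD+GR, 9.69, 1.94 and 1.12 FPKM in CeD, and 5.32, 0.780 and 0.615 FPKM in control libraries. Tpx2, which activates Aurka on the spindle, had 3.91, 0.787 and 2.46 FPKM in CeD+GR, 5.40, 2.17 and 1.38 FPKM in CeD, and 3.43, 0.759 and 1.36 FPKM in control libraries. Both were highest in CeD 1. Nusap1, Prc1, Kif20a, Kif23, Cenpe, Cenpf, Ttk and Bub1b, which act at spindle microtubules, the midzone, the kinetochore or its checkpoint, were also highest in CeD 1, at 1.40 FPKM (Ttk) to 6.06 FPKM (Bub1b).

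Birc5, or survivin, a passenger complex subunit, varied less, its highest library being 2.47 times its lowest, with 6.23, 2.52 and 4.03 FPKM in CeD+GR, 6.18, 3.75 and 3.21 FPKM in CeD, and 4.54, 3.19 and 3.55 FPKM in control libraries. Foxm1, a transcription factor of G2 and M phase genes, had 1.38, 0.508 and 1.56 FPKM in CeD+GR, 3.89, 1.05 and 0.664 FPKM in CeD, and 1.79, 0.427 and 0.618 FPKM in control libraries. Foxm1 was highest in CeD 1, and the other 8 libraries were at 1.79 FPKM or less.

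Across the members, the 3 libraries numbered 1 were each above all 6 other libraries in 32 of 41 genes, 12 of 17 S phase and 20 of 24 mitotic, against 9.06% of all genes tested. Within the groups, replicate 1 was above replicates 2 and 3 in 33 of 41 members in CeD+GR, in 41 of 41 in CeD and in 41 of 41 in control libraries, against 30.4%, 38.8% and 42.4% of all genes tested. The median ratio of replicate 1 to the mean of replicates 2 and 3 was 2.76 in CeD+GR, 4.68 in CeD and 3.97 in control libraries for mitotic members. For S phase members it was 1.63 in CeD+GR, 3.54 in CeD and 3.11 in control libraries. Over all genes tested this ratio was 0.965, 0.976 and 0.995. CeD+GR 3 was above CeD+GR 2 in 41 of 41 members, with a median ratio of 3.21, against 52.2% of all genes tested. The 3 libraries numbered 1 and CeD+GR 3 were all above the other 5 in 34 of 41 members, against 11.8% of all genes tested. The labels do not say what a replicate number stands for.

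The summed level of crypt stem cell markers was high in the same 4 libraries as the members, but the single markers did so only in part. The 9 crypt stem cell markers summed to 158, 21.6 and 218 FPKM in CeD+GR 1, 2 and 3, to 252, 53.7 and 44.1 FPKM in CeD, and to 171, 43.0 and 38.5 FPKM in control libraries, and all 9 were above 0 in every library. Olfm4, a marker of these cells, had 119, 1.29 and 40.8 FPKM in CeD+GR, 181, 22.6 and 10 FPKM in CeD, and 110, 13.1 and 13.2 FPKM in control libraries. For the sum and for Olfm4, CeD+GR 1, CeD+GR 3, CeD 1 and control 1 were high and CeD+GR 2 was lowest. Marker by marker, these 4 libraries were all above the other 5 in 4 of 9, and CeD+GR 1 was above CeD+GR 2 and 3 in 3 of 9. Lgr5, the receptor that defines these stem cells, was lowest in CeD+GR 3, at 0.101 FPKM, and at 1.11 FPKM in CeD+GR 1, 1.30 FPKM in CeD 1 and 1.44 FPKM in control 1. The sum in CeD+GR 3 came mostly from Slc12a2 at 81.2 FPKM, Sox9 at 62.5 FPKM and Olfm4.

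The 8 markers of Paneth cells, which do not divide and sit at the crypt base, summed to 2140, 94.1 and 81.4 FPKM in CeD+GR, to 2010, 110 and 75.9 FPKM in CeD, and to 1060, 74.0 and 174 FPKM in control libraries. Here only the 3 libraries numbered 1 were high, and CeD+GR 3 was not. The 12 markers of villus enterocytes, the differentiated absorptive cells, summed to 26300, 28100 and 7740 FPKM in CeD+GR, to 12200, 31400 and 24200 FPKM in CeD, and to 15800, 29600 and 24600 FPKM in control libraries. CeD+GR 3, CeD 1 and control 1 were the 3 lowest. Markers of B and germinal centre cells, another dividing population, summed to 4.10 to 9.66 FPKM in CeD+GR, 6.04 to 10.9 FPKM in CeD and 4.78 to 12.3 FPKM in control libraries. Their sum was also higher in the libraries numbered 1. The part of these cell types in the levels of the members was not tested.

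**Figure D3:**
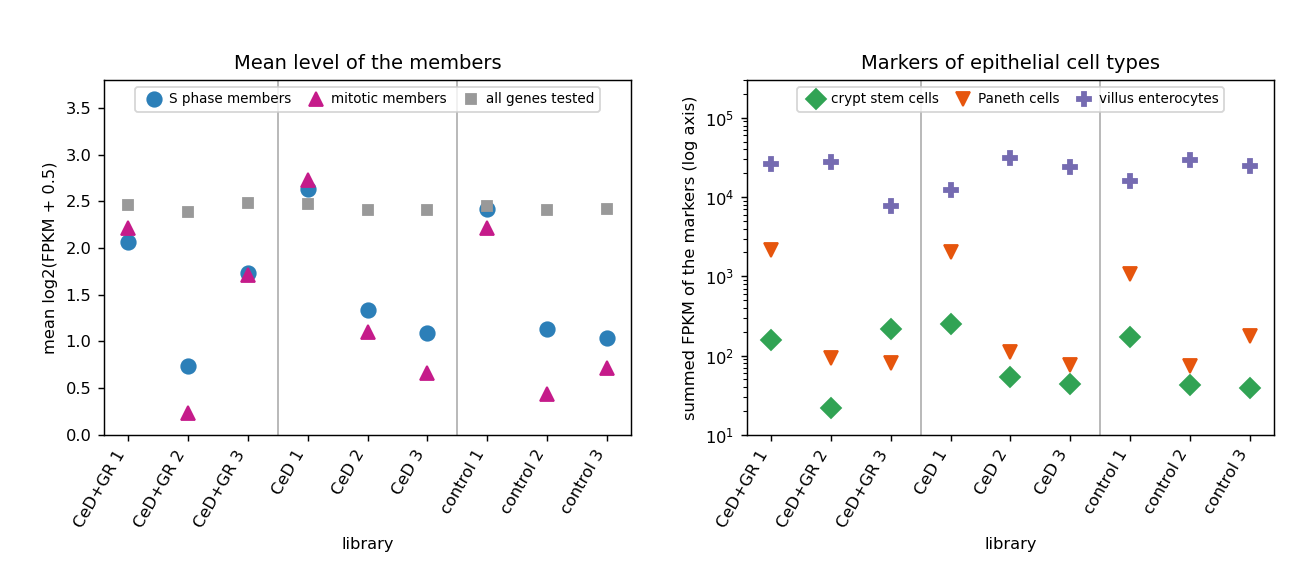
Left, mean log2(FPKM + 0.5) of the 17 S phase members, the 24 mitotic members and all 14683 genes tested in each library; right, summed FPKM of crypt stem cell, Paneth cell and villus enterocyte markers on a log axis, with lines between the groups. The members are high in CeD+GR 1, CeD+GR 3, CeD 1 and control 1, as is the sum of the crypt stem cell markers, while all genes tested stay between 2.39 and 2.48.

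The first comparison, CeD against control, sets the celiac model with enhanced gluten stimulation beside WT duodenum without it. Most members were higher in CeD on average, but none passed the test. Of the 24 mitotic members 24 had a positive log2 fold change, with a median of 0.34 and a range of 0.06 (Ccnb2) to 0.76 (Kif11). Of the 17 S phase members 15 were positive, with a median of 0.17 and a range of -0.58 (Rrm2) to 0.41 (Rrm1). The median over all genes tested was 0.00, and the median standard error of the 41 members was 0.662, against 0.348 for all genes.

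By limma with Benjamini-Hochberg adjustment over all genes tested, 0 of 41 members had an adjusted p under 0.05 in CeD against control, as did 0% of all genes tested. At an unadjusted p under 0.05 there were 0 of 41 members, against 0.701% of all genes, or 103 genes. The 3 CeD libraries lay all above or all below the 3 control libraries in 0 of 41 members, against 4.69% of all genes. The smallest unadjusted p was that of Aurka, which averaged 3.64 ± 2.5 FPKM in CeD and 2.19 ± 1.70 FPKM in control (SD, n = 3 each), a log2 fold change of 0.64 with a standard error of 0.53 (limma, unadjusted p = 0.253, adjusted p = 1). Foxm1 averaged 1.87 ± 1.76 FPKM in CeD and 0.943 ± 0.735 FPKM in control, with a log2 fold change of 0.58 (SE 0.56, limma adjusted p = 1). Tpx2 averaged 2.98 ± 2.13 FPKM in CeD and 1.85 ± 1.40 FPKM in control, with a log2 fold change of 0.56 (SE 0.61, limma adjusted p = 1).

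Of the S phase members in this comparison, Rrm2 was lower in CeD on average, at 5.21 ± 4.45 FPKM in CeD and 6.92 ± 2.74 FPKM in control, a log2 fold change of -0.58 (SE 0.66, limma adjusted p = 1). Rrm1 averaged 2.69 ± 1.97 FPKM in CeD and 1.85 ± 1.32 FPKM in control, with a log2 fold change of 0.41 (SE 0.52, limma adjusted p = 1). Cdc45 averaged 1.41 ± 0.850 FPKM in CeD and 1.05 ± 0.749 FPKM in control, with a log2 fold change of 0.32 (SE 0.43, limma adjusted p = 1). Without CeD 1 the log2 fold change was -0.06 for Rrm1 and -1.17 for Rrm2.

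The sign of the medians could turn when 1 library was left out, but held with libraries 2 and 3 of each group alone. In that setting the medians were 0.30 for mitotic and 0.19 for S phase members. Without CeD 1 the median log2 fold change in CeD against control was -0.25 for mitotic and -0.29 for S phase members, and without control 1 it was 1.02 and 0.63. CeD 1 was the highest library in 36 of 41 members, against 11.8% of all genes tested, and it was above control 1 in 40 of 41 members, with a median ratio of 1.49 for mitotic and 1.16 for S phase members. CeD 2 was above control 2 in 37 of 41 members, with a median ratio of 1.60, and CeD 3 was above control 3 in 22 of 41, with a median ratio of 1.01. Over all genes tested, CeD 1 was above control 1 in 49.4%, CeD 2 above control 2 in 51.6% and CeD 3 above control 3 in 46.5%. Since the numbers are not said to pair libraries, these ratios and shares set libraries side by side and are not tests.

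The second comparison, CeD+GR against CeD, asks what the nanoparticles given beforehand changed in the model, and shares the CeD libraries with the first. The members were mostly lower in CeD+GR on average, with a median log2 fold change of -0.16 for mitotic and -0.22 for S phase members, against 0.01 for all genes tested. Of the mitotic members 17 of 24 were negative, with a range of -0.45 (Mki67) to 0.83 (Plk1), and of the S phase members 14 of 17 were negative, with a range of -0.59 (Uhrf1) to 0.37 (Gins2). By limma 0 of 41 members had an adjusted p under 0.05, as did 0% of all genes. At an unadjusted p under 0.05 there were 0 of 41, against 2.89% of all genes, or 425 genes. The CeD+GR and CeD libraries did not overlap in 0 of 41 members, against 6.05% of all genes.

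Plk1 averaged 21.2 ± 27.5 FPKM in CeD+GR and 7.0 ± 4.91 FPKM in CeD (SD, n = 3 each), and its log2 fold change was 0.83 with a standard error of 0.94 (limma adjusted p = 1), and 1 library, CeD+GR 3, carries that average. Mki67 averaged 6.31 ± 3.82 FPKM in CeD+GR and 9.26 ± 7.96 FPKM in CeD, with a log2 fold change of -0.45 (SE 0.73, limma adjusted p = 1). Cenpf, a kinetochore protein, averaged 0.452 ± 0.325 FPKM in CeD+GR and 0.774 ± 0.682 FPKM in CeD, with a log2 fold change of -0.35 (SE 0.50, limma adjusted p = 1).

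Among S phase members, Cdc45 had the smallest unadjusted p, at 0.850 ± 0.346 FPKM in CeD+GR and 1.41 ± 0.850 FPKM in CeD; the log2 fold change was -0.45 (SE 0.43, limma unadjusted p = 0.330, adjusted p = 1). E2f1 averaged 0.875 ± 0.444 FPKM in CeD+GR and 1.30 ± 0.616 FPKM in CeD, with a log2 fold change of -0.39 (SE 0.45, limma adjusted p = 1). Uhrf1 averaged 2.44 ± 1.48 FPKM in CeD+GR and 4.31 ± 3.84 FPKM in CeD, with a log2 fold change of -0.59 (SE 0.70, limma adjusted p = 1). All 3 were highest in CeD 1.

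Here too the sign of the medians turned with 1 library. Without CeD 1 they were 0.38 for mitotic and 0.32 for S phase members, and without CeD+GR 2 they were 0.34 and 0.13. Without CeD 3 they were -0.52 and -0.53, and with libraries 2 and 3 of each group alone both stayed negative. CeD+GR 1 was below CeD 1 in 38 of 41 members, with a median ratio of 0.620, and CeD+GR 2 was below CeD 2 in 39 of 41, with a median ratio of 0.484, whereas CeD+GR 3 was above CeD 3 in 41 of 41, with a median ratio of 2.10. Over all genes tested, CeD+GR 1 was above CeD 1 in 49.6%, CeD+GR 2 above CeD 2 in 46.1% and CeD+GR 3 above CeD 3 in 51.2%. These ratios did not share a direction for the members, but the numbers are not said to pair libraries, so they are not tests. CeD+GR 3 is the library with the high gastric and Brunner gland markers, whose part in the levels of the members was not tested. The sign of the log2 fold change turned in 28 of 41 members without CeD 1. It turned in 7 without CeD+GR 1, in 23 without CeD+GR 2 and in 4 without CeD+GR 3.

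**Figure D4:**
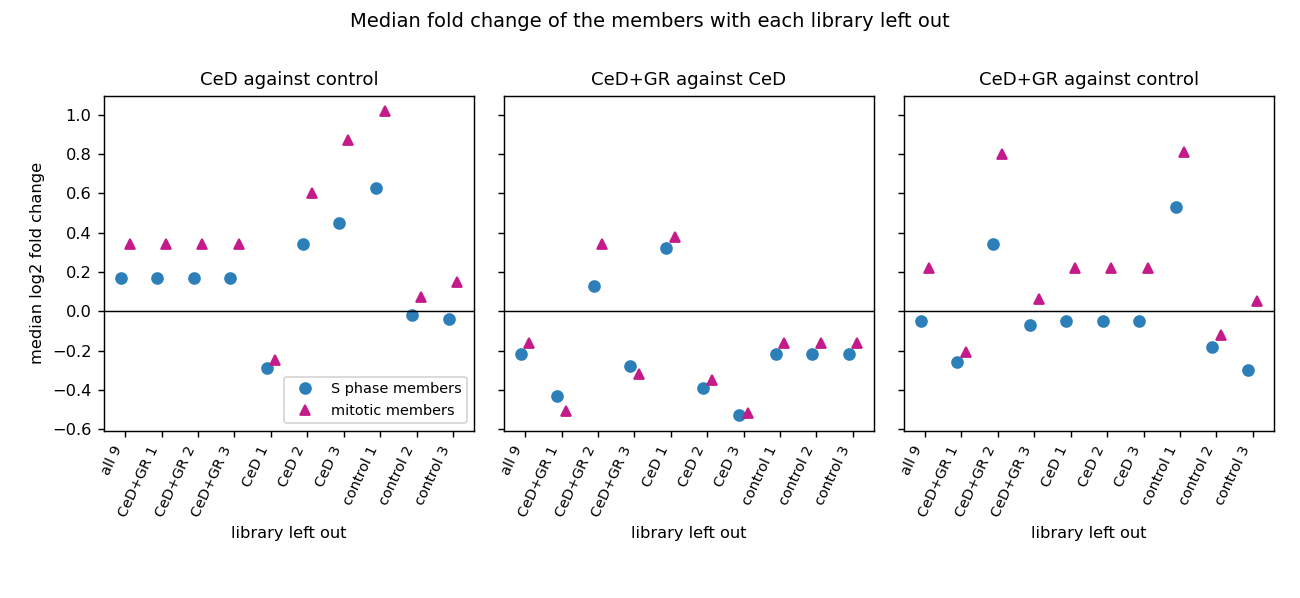
Median log2 fold change of the S phase members (blue circles) and of the mitotic members (magenta triangles) in each comparison, with all 9 libraries at the left of each panel and then with the named library left out. Without CeD 1 the medians in CeD against control are -0.29 and -0.25 and those in CeD+GR against CeD are 0.32 and 0.38, each on the other side of 0 from the value with all 9 libraries.

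The third comparison, CeD+GR against control, shares its libraries with the other two. The mitotic members had a median log2 fold change of 0.22, with 19 of 24 positive and a range of -0.14 (Kif23) to 0.98 (Plk1), and the S phase members had a median of -0.05, with 8 of 17 positive and a range of -0.85 (Rrm2) to 0.52 (Gins2). The median over all genes tested was 0.00. By limma 0 of 41 members had an adjusted p under 0.05, as did 0% of all genes. At an unadjusted p under 0.05 there were 0 of 41, against 2.72% of all genes, or 400 genes, and the groups did not overlap in 0 of 41, against 5.58% of all genes.

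Aurka again had the smallest unadjusted p, at 3.71 ± 0.882 FPKM in CeD+GR and 2.19 ± 1.70 FPKM in control (SD, n = 3 each), a log2 fold change of 0.81 with a standard error of 0.53 (limma unadjusted p = 0.157, adjusted p = 1). Plk1 had a log2 fold change of 0.98 (SE 0.94, limma adjusted p = 1), which rests on CeD+GR 3. Ube2c averaged 8.88 ± 6.55 FPKM in CeD+GR and 5.10 ± 4.27 FPKM in control, with a log2 fold change of 0.57 (SE 0.85, limma adjusted p = 1).

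Of the S phase members, Rrm2 averaged 4.17 ± 2.72 FPKM in CeD+GR and 6.92 ± 2.74 FPKM in control, a log2 fold change of -0.85 (SE 0.66, limma adjusted p = 1). Gins1 averaged 2.52 ± 0.823 FPKM in CeD+GR and 3.14 ± 0.546 FPKM in control, with a log2 fold change of -0.30 (SE 0.27, limma adjusted p = 1). Pcna averaged 30.9 ± 12.2 FPKM in CeD+GR and 23.2 ± 6.82 FPKM in control, with a log2 fold change of 0.37 (SE 0.39, limma adjusted p = 1). Set beside each other, CeD+GR 1 was below control 1 in 16 of 17 S phase members, with a median ratio of 0.741, and above it in 14 of 24 mitotic members, with a median ratio of 1.01. Over all genes tested, CeD+GR 1 was above control 1 in 49.9%. Without CeD+GR 2 the median log2 fold changes were 0.80 for mitotic and 0.34 for S phase members, and without CeD+GR 1 they were -0.21 and -0.26. Without control 1 they were 0.81 and 0.53. The sign of the log2 fold change turned in 16 of 41 members without CeD+GR 1, in 12 without CeD+GR 2 and in 9 without CeD+GR 3.

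**Figure D5:**
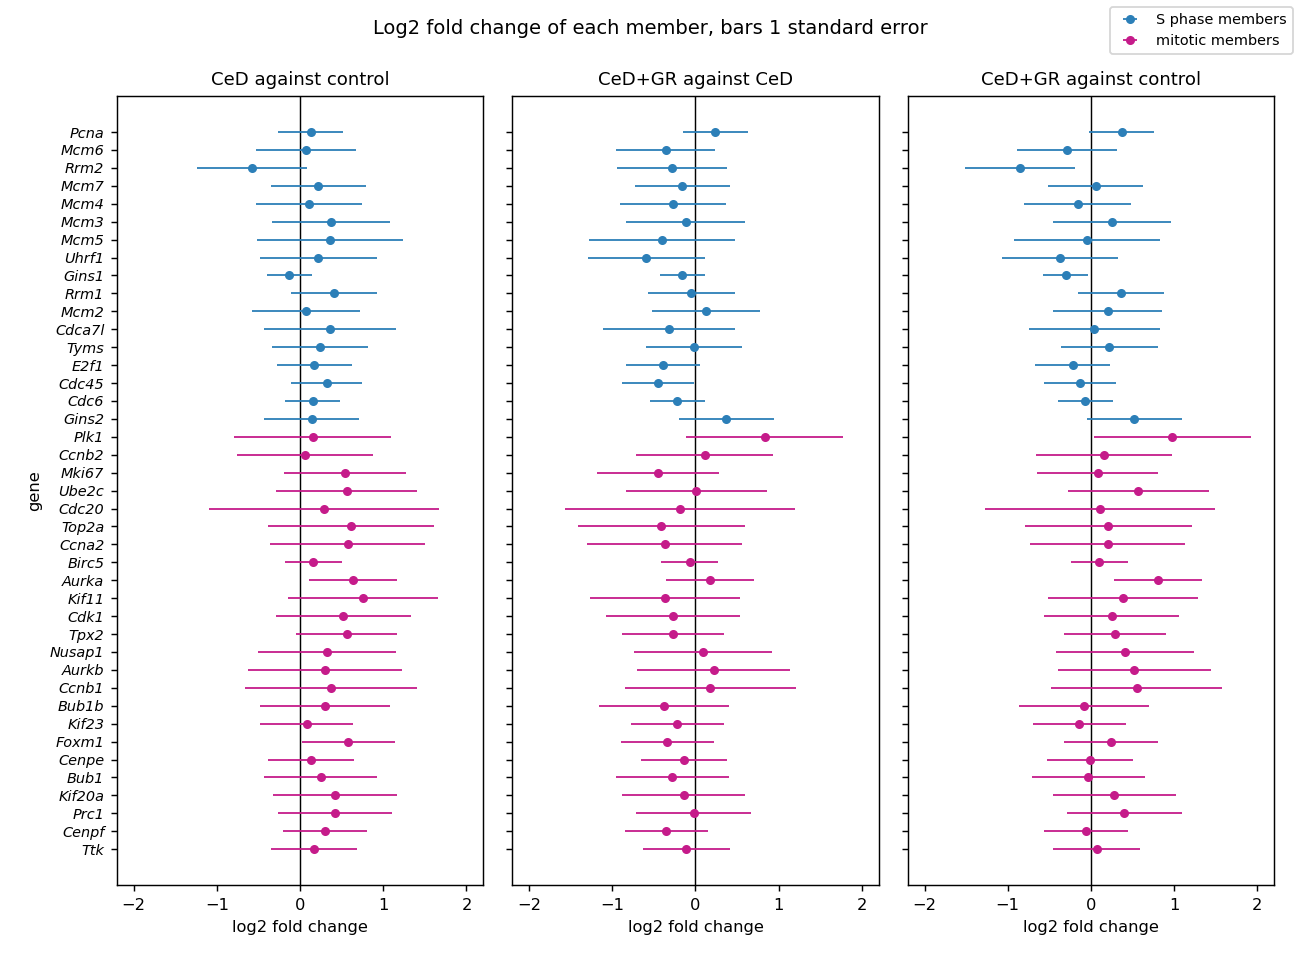
Log2 fold change on the log2(FPKM + 0.5) scale (points) with 1 standard error (bars) of each member in the 3 comparisons, S phase members in blue above and mitotic members in magenta below. In CeD against control 39 of 41 points lie above 0 and in CeD+GR against CeD 31 of 41 lie below 0, with a median standard error of 0.662, and none passed the test.

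The rest of the pathway was read from lists of genes that are not members. The other mitotic genes, 46 tested of 53 listed, behaved like the mitotic members across libraries, since each library numbered 1 was above all 6 others in 36 of 46. That held for 17 of 37 other replication genes, from 42 listed, and for 6 of 32 genes of G1 phase and cell cycle exit, from 33 listed. Over all genes tested the share was 9.06%. In CeD against control the median log2 fold change was 0.27 for the other mitotic genes, 0.09 for the other replication genes and 0.09 for the G1 and exit genes. In CeD+GR against CeD these medians were -0.15, -0.12 and -0.09, and in CeD+GR against control they were 0.15, 0.01 and -0.06. None of these genes passed limma's adjusted test in any of the 3 comparisons, where each adjusted p was 1.

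At an unadjusted p under 0.05, limma found 0 of these 115 genes in CeD against control, 2 (1.74%) in CeD+GR against CeD and 2 (1.74%) in CeD+GR against control, against 0.701%, 2.89% and 2.72% of all genes tested. The groups did not overlap in 2 (1.74%), 3 (2.61%) and 3 (2.61%) of the 115, against 4.69%, 6.05% and 5.58% of all genes. Both shares were below those of all genes in each comparison, and the genes named next are described for their values only. Gins4, a GINS subunit like Gins1 and Gins2, had 9.81, 15.4 and 9.25 FPKM in CeD+GR, 8.07, 7.61 and 5.89 FPKM in CeD, and 7.61, 6.53 and 7.56 FPKM in control libraries. All 3 CeD+GR libraries were above the other 6, and CeD+GR 2, the lowest library for most members, was the highest for Gins4. Its log2 fold change was 0.62 in CeD+GR against CeD (SE 0.24, limma unadjusted p = 0.0301, adjusted p = 1). Against control it was 0.60 (SE 0.24, limma unadjusted p = 0.0336, adjusted p = 1).

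Wdhd1, a replisome protein that links the helicase to polymerase alpha, had 1.05, 0.691 and 0.957 FPKM in CeD+GR, 1.81, 1.16 and 1.52 FPKM in CeD, and 1.68, 1.39 and 2.17 FPKM in control libraries. All 3 CeD+GR libraries were below the other 6. Its log2 fold change was -0.51 in CeD+GR against CeD (SE 0.25, limma unadjusted p = 0.0752, adjusted p = 1). Against control it was -0.68 (SE 0.25, limma unadjusted p = 0.0252, adjusted p = 1). Cdkn2b, an inhibitor of the G1 kinases Cdk4 and Cdk6, had 44.2, 18.4 and 22 FPKM in CeD+GR, 38.2, 42.7 and 50.3 FPKM in CeD, and 36.0, 35.1 and 40.8 FPKM in control libraries. CeD+GR 2 and 3 were the 2 lowest while CeD+GR 1 was among the highest, and the log2 fold change in CeD+GR against CeD was -0.72 (SE 0.32, limma unadjusted p = 0.0499, adjusted p = 1).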

How the data were processed

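Levels were taken as FPKM per gene from 1 table deposited by the authors, with gene lengths and mm10 coordinates per the file headers. The libraries were directional and depleted of ribosomal RNA, per the labels' protocols. DESeq2 1.20.0, featureCounts 1.5.0-p3, HISAT2 2.0.5, fastp and the build mm10 are named, in no stated role or order, by the submitters' processing notes. How the FPKM were scaled and which strand setting was used in counting is not given there. Whole reads could be recovered from 100% of the values above 0, within 0.1 reads, giving 15373260 to 16852104 reads per library. Counting intervals and limits cover counting error only.

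Values were used as log2(FPKM + 0.5), which understates changes of low genes, for genes averaging 0.5 FPKM or more. A group-means model of all 9 libraries was fitted with limma 3.58.1 (R 4.3.3, mean-variance trend) and tested two-sided, with Benjamini-Hochberg adjustment over 14683 genes at 0.05. The steps were tested on simulated data. No set test was run. Start-site windows came from RefSeq (GRCm38.p6).

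The members, lists, motifs and markers were chosen with earlier results of these data known. Any member could be named. Full statistics were given for the 3 S phase and 3 mitotic members with the smallest unadjusted p in each comparison, and genes of other lists were named among the 3 with the smallest unadjusted p. Printed windows are those of the most abundant members holding the motif searched. Alternatives were pseudocounts of 0.1 and 1, other filters and scalings, array weights, limma-voom on recovered reads, fewer groups, the replicate block and libraries left out. The value of 1 marker gene is not reported here.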

Additional observations from a re-analysis of the deposited data

How the results depend on the processing

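No gene was called in CeD against control or in CeD+GR against CeD under any alternative. With 1 library left out at a time, the number of genes called in CeD+GR against control ranged from 0 to 1, and the 1 gene, the small RNA gene Gm22615 without control replicate 1, is no member. limma-voom on the recovered reads called 0 genes in each comparison, with, at an unadjusted p under 0.05, 62 genes in CeD against control, 368 in CeD+GR against CeD and 313 in CeD+GR against control. No member was called under any alternative. The medians of the members moved by less than the spread between replicates but changed sign. With 1 library left out they ranged from -0.29 to 0.63 (S phase) and -0.25 to 1.02 (mitotic) in CeD against control, from -0.53 to 0.32 and -0.52 to 0.38 in CeD+GR against CeD, and from -0.30 to 0.53 and -0.21 to 0.81 in CeD+GR against control. Array weights also turned the medians in CeD+GR against CeD, to 0.35 (S phase) and 0.51 (mitotic), moved those in CeD+GR against control to 0.61 and 1.09, and gave 1354 genes at an unadjusted p under 0.05 in CeD against control, against 103 without weights. With libraries 2 and 3 of each group alone, medians were 0.19, -0.09 and 0.21 for S phase and 0.30, -0.06 and 0.33 for mitotic members in the 3 comparisons, and without CeD 1 and CeD+GR 3 they were -0.29, 0.23 and -0.07 and -0.25, 0.23 and 0.06. A filter of 2 FPKM kept 27 of the 41 members.

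Samples with the same replicate number did not all deviate together. Correlations of deviations from the group means were 0.254 to 0.712 in 7 pairs of the same number, but -0.12 between CeD+GR 3 and CeD 3 and -0.11 between CeD+GR 3 and control 3, so the numbers were not taken as pairing the samples. The replicate block could not change the medians, because each group holds a library of each number. They were 0.17, -0.22 and -0.05 for S phase and 0.34, -0.16 and 0.22 for mitotic members, as without the block. With the block 0 genes were called, with 193, 805 and 643 genes at an unadjusted p under 0.05. Low members rest on few reads, down to 0 for Cdc20 and Bub1 in CeD+GR 2 and 4 for Gins2 in control 2.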

Other observations

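Within the G1 and cell cycle exit list, Ccnd1 and Cdkn1a were looked at after their values were seen. Ccnd1, the cyclin D1 that opens G1 phase, had 3.70, 0.998 and 8.08 FPKM in CeD+GR 1, 2 and 3, then 7.13, 0.781 and 0.619 FPKM in CeD 1, 2 and 3, and 4.30, 0.421 and 0.352 FPKM in control 1, 2 and 3. The same 4 libraries were high as for the members, with CeD+GR 3 highest. Over this list, these 4 were all above the other 5 in 7 of 32 genes, or 21.9%, against 11.8% of all genes tested. Its log2 fold change was 0.51 (SE 0.97) in CeD against control, 0.77 (SE 0.97) in CeD+GR against CeD and 1.28 (SE 0.97) in CeD+GR against control, and limma's adjusted p was 1 in each. Cdkn1a, the inhibitor p21 that marks cells leaving the cycle, had 83.8, 64.2 and 35.4 FPKM in CeD+GR, 47.7, 78.8 and 60.6 FPKM in CeD, and 59.0, 73.3 and 83.0 FPKM in control libraries. Its highest library was CeD+GR 1, which was high for the members, as were its 2 lowest, CeD+GR 3 and CeD 1. The groups overlapped, and limma's adjusted p was 1 in each comparison.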
